A study of Danio rerio with 8 samples.

Results

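The comparison set 2 jam3b-sa37 zebrafish (Danio rerio) libraries against 2 wild-type (WT) libraries, all made from whole embryos collected at 16 hours post-fertilization (hpf). It was made over 18959 transcription start regions, out of 42130 in all. These are the regions that both deposited lists of start site clusters cover and whose mean over the 4 libraries is at least 1 RPM. RPM is read as tags per 1000000 tags, as inferred from the value steps and the column sums. Of the 23602 regions that both lists cover, 4643 fell below that mean. The filter edge lies at a mean of 1.0 RPM on both sides. The series holds 8 libraries, with 2 more of each genotype at 12 hpf, and those entered the model for its estimate of the spread.

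Both genotypes were sampled as untreated whole embryos, with no treatment in the labels. The jam3b-sa37 embryos carry the sa37 allele of jam3b. The labels name neither the zygosity, the background strain, the number of embryos pooled per library nor the clutches they came from. In the main model, p-values therefore measure the spread left between these libraries once the common difference between the lists is removed. That spread may be technical. In RNA from whole embryos, fewer cells that use a start site and less RNA per cell cannot be told apart.

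The gene jam3b encodes a junctional adhesion molecule, an immunoglobulin-family protein that sits in the membrane where cells touch. In zebrafish, Jam3b on one muscle precursor binds Jam2a on its neighbour, and this contact is required for the precursors to fuse into multinucleated fast muscle fibres. At 16 hpf the embryo is forming somites, the blocks of mesoderm that give rise to that muscle. Cap analysis gene expression (CAGE) captures RNAs by their 5′ cap and sequences their first bases, so tags pile up where transcription starts. A gene can have several start sites, and a narrow cluster of starts and a broad one are both common in vertebrate promoters. The files give each cluster by chromosome, start, end and strand in the danRer10 build named in the submitters' processing notes, with no gene name. No annotation of that build was used here, so regions are given by position and the start site of jam3b itself was not analysed here. For the same reason no muscle, blood or other marker list was set against the whole-embryo label.

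The libraries come in 2 lists that were made and normalized separately, so every difference was taken within a list. List 1 holds the libraries whose titles carry no number (replicate 1), and list 2 those whose titles end in 2 (replicate 2). At 16 hpf, list 1 held 14804202 tags for WT and 15830709 for sa37, and list 2 held 22955989 for WT and 23300962 for sa37. List 1 gives nothing between 0 and 0.52 RPM at 16 hpf, whereas list 2 reaches down to 1 tag, which is worth 0.042 RPM in both of its 16 hpf libraries. The tested regions held 97.8 to 98.6% of the RPM listed in the 4 libraries. Differences are sa37 minus WT on the log2(RPM + 1) scale, which understates changes at low levels, and are given with their standard error (SE).

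At 16 hpf, 412 start regions differed between the genotypes, which is 2.17% of the 18959 tested (limma with the list as a block, Benjamini-Hochberg adjusted p under 0.05). In sa37, 264 regions were higher (1.39%) and 148 were lower (0.781%). The median difference was 1.64 among the higher regions, with a range from 0.80 to 10.02, and -1.69 among the lower ones, with a range from -9.73 to -0.84. A difference of at least 2 on the log2 scale, which is 4-fold, was reached by 85 of the higher and 50 of the lower regions, and one of at least 3, which is 8-fold, by 25 and 23. The 264 higher regions added up to 2691 and 2705 RPM in WT, in lists 1 and 2, and to 12283 and 11118 RPM in sa37. The 148 lower regions added up to 31238 and 20766 RPM in WT and to 8217 and 6105 RPM in sa37. These sums describe regions that the same values selected, and a few strong regions carry them: called lower regions in the 3 windows of dense calls described further on made up 28216 and 16521 RPM of the WT sums.

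The number called depended strongly on the model. Without the block 17 regions were called (0.0897%; 11 higher, 6 lower). With edgeR on tags recovered from the RPM values and the same block, 178 were called (0.939%; 95 higher, 83 lower), of which 159 were among the 412, and none of the 412 had the opposite sign in edgeR. Leaving out 1 library gave 92 calls without sa37 replicate 2 at 16 hpf, 101 without sa37 replicate 1, 147 without WT replicate 1 and 170 without WT replicate 2. It gave 258 calls without either one of the sa37 libraries of 12 hpf and 332 without either one of the WT libraries of 12 hpf. The share of calls that were higher in sa37 was 64.1% in the main model and 53.2% after quantile normalization, which moved the median difference of all tested regions from 0.09 to -0.01. Before that normalization, 63.5% of all tested regions had a difference above 0. The excess of higher over lower calls is therefore to be read against that shift.

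In the pair of libraries of list 1, 1180 tested regions differed at least 2-fold between the genotypes, and in the pair of list 2, 964 did. Both pairs showed at least 2-fold in the same direction in 461 regions (2.43%), with 282 higher and 179 lower there, and in opposite directions in 23. Of the 461, 329 were called and 132 were not. Each of the 412 called regions had the same sign in both lists, and the size was larger in list 1 for 208 of them. The model counts disagreement between the lists as spread, so the calls favour an equal sign and a like size. The shared sign is therefore no separate support. Across all tested regions Pearson's r between the differences of the lists was 0.547 (Spearman's rho 0.402), as a description over regions that share libraries. The same counts were made at 8-fold. A difference of at least 8-fold was seen in 98 regions in list 1 and in 109 in list 2, and in both, in the same direction, in 38. Of these 38, 20 were higher and 18 lower in sa37, and 35 were called. By contrast, 24 regions were past 8-fold in list 1 and under 2-fold in list 2, and 30 were the other way round. None of these 54 were called, which the model favours for the same reason.

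**Figure D1:**
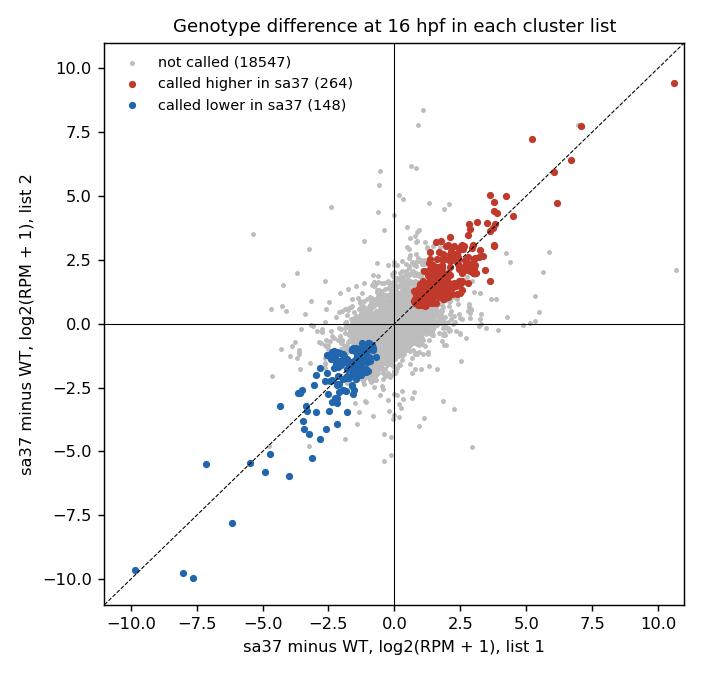
Genotype difference (sa37 minus WT, log2(RPM + 1)) at 16 hpf in list 1 on the horizontal axis and in list 2 on the vertical axis, with 1 point for each of the 18959 tested regions, 264 called higher in red, 148 called lower in blue and the rest in grey. The called regions lie in the quadrants where both lists share a sign, which the choice of calls favours. The dashed line marks equal size in both lists.

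The 10 regions per direction with the smallest adjusted p and the same sign in both lists are named here by the letters A to T. Among the higher ones, A to J, the sa37 levels ran from 11.3 to 1553 RPM, and the WT levels from 0 to 4.34 RPM. The 20 regions stayed called in each of the 8 runs that left out 1 library, with the 16 hpf libraries alone under the block, after quantile normalization and in edgeR. Without the block 14 of the 20 stayed called, with the 16 hpf libraries alone and no block 4, with a pseudocount of 0.1 RPM 17 and with DESeq2 19.

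Region A, at chr25:7539414-7539541 (minus strand), was at 0 and 0.126 RPM in WT and at 65.9 and 68.8 in sa37, while L, at chr25:7484192-7484246 on the same strand, was at 44.1 and 44.4 RPM in WT and at 0 and 0.042 in sa37. The replicates of A and of L differed from each other by far less than the genotypes did, which their choice by smallest adjusted p favours. The difference was 6.01 (SE 0.14, limma adjusted p 2.76e-05) for A and -5.47 (SE 0.16, limma adjusted p 4.51e-05) for L.

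Region B, at chr25:34601787-34601808 (minus strand), had the largest difference of all tested regions. It was at 0 and 0.168 RPM in WT and at 1553 and 804 RPM in sa37. The difference was 10.02 (SE 0.29, limma adjusted p 4.51e-05). Region J, at chr11:30863131-30863211 (minus strand), was at 1.28 and 0.799 RPM in WT and at 304 and 388 RPM in sa37. Its difference was 7.41 (SE 0.38, limma adjusted p 0.000636), and it missed the threshold with a pseudocount of 0.1 RPM (adjusted p 0.0998). Region C, at chr4:66306431-66306609 (plus strand), was at 4.34 and 1.26 RPM in WT and at 547 and 192 RPM in sa37. Its levels in list 1 were above those in list 2 in both genotypes, by a similar factor. The difference was 6.55 (SE 0.19, limma adjusted p 4.51e-05), and without the block it missed the threshold (adjusted p 0.0806). A, B, C and J themselves were thus strong start sites in sa37 and weak or undetected in WT. The genotypes did not overlap there, which the choice of these regions favours.

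Regions D, E, H and I were listed at 0 in both WT libraries, and their folds are lower bounds taken against the smallest listed value in list 1 and 3 tags in list 2, whichever ratio is smaller. Region D, at chr2:2539381-2539424 (minus strand), was at 21.4 and 17.4 RPM in sa37, at least 38.9-fold higher (difference 4.34, SE 0.15, limma adjusted p 0.000106). Region E, at chr3:6150497-6150507 (plus strand), is only 10 bases wide and was at 11.3 and 11.4 RPM in sa37, at least 20.5-fold higher (difference 3.62, SE 0.14, limma adjusted p 0.000191). These 2 regions were on in sa37 at nearly the same level in both lists. Region H, at chr21:2480184-2480227 (plus strand), was at 12.9 and 20.3 RPM in sa37, at least 23.4-fold higher (difference 4.10, SE 0.20, limma adjusted p 0.000486). Region I, at chr2:31731273-31731283 (minus strand), was at 17.6 and 31.2 RPM in sa37, at least 31.9-fold higher (difference 4.61, SE 0.23, limma adjusted p 0.000553). Region I missed the threshold in DESeq2 (adjusted p 0.252).

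Regions F and G were near 0 in WT. F, on the minus strand of an unplaced scaffold from 617 to 700, was at 0 and 0.042 RPM in WT and at 13.1 and 14.5 RPM in sa37 (difference 3.86, SE 0.16, limma adjusted p 0.000293). G, at chr5:68889528-68889639 (plus strand), was at 0 and 0.336 RPM in WT and at 12.2 and 16.8 RPM in sa37 (difference 3.73, SE 0.16, limma adjusted p 0.000315). The call of F was kept without the block (adjusted p 0.0133), while that of G was not (adjusted p 0.0627).

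Among the regions lower in sa37, K to T, 3 were listed at 0 in both sa37 libraries. Region K, at chr7:73629474-73629491 (minus strand), was at 918 and 787 RPM in WT and at 0 in both sa37 libraries, at least 1766-fold lower. It had the lowest difference of all tested regions at -9.73 (SE 0.17, limma adjusted p 7.78e-06). With clusters within 100 bases merged, the difference around K was -7.13 (limma adjusted p 0.00187). The smaller size means that sa37 had tags in that merged region, though K itself was listed at 0. Region Q, at chr22:27759616-27759665 (minus strand), was at 10.2 and 13.2 RPM in WT, at least 19.5-fold lower in sa37 (difference -3.65, SE 0.24, limma adjusted p 0.00182). Region T, at chr17:29892734-29892796 (plus strand), was at 3.49 and 4.12 RPM in WT, at least 6.71-fold lower in sa37 (difference -2.26, SE 0.16, limma adjusted p 0.00234). K and Q kept their call without the block, and T missed it (adjusted p 0.0813).

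Region M, on the minus strand of another unplaced scaffold from 10432 to 10889, was at 25.5 and 37.5 RPM in WT and at 0 and 0.125 RPM in sa37 (difference -4.91, SE 0.17, limma adjusted p 0.000106). Region O, at chr7:73595912-73595925 (plus strand), was at 1490.3 and 1413 RPM in WT and at 19.7 and 5.32 RPM in sa37 (difference -6.99, SE 0.42, limma adjusted p 0.00152). Region S, at chr25:34621091-34621103 (minus strand), was at 1355 and 375 RPM in WT and at 137 and 34.1 RPM in sa37 (difference -3.36, SE 0.23, limma adjusted p 0.00201). For S the WT library of list 2 lay between the WT and sa37 libraries of list 1, and the genotypes did not overlap. Its call rested on taking the difference within each list: without the block the adjusted p was 0.968.

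Regions N and P lie within 10 kb of each other on the plus strand of chromosome 1, from 19156224 to 19156246 and from 19162502 to 19162508. N was at 32.5 and 35.0 RPM in WT and at 2.25 and 2.91 RPM in sa37. P was at 32.2 and 34.5 RPM in WT and at 5.09 and 6.44 RPM in sa37. In each library of WT the levels of the 2 regions were nearly equal, whereas in sa37 P was above N. The differences were -3.29 (SE 0.16, limma adjusted p 0.000467) for N and -2.35 (SE 0.15, limma adjusted p 0.00152) for P. Region R, at chr12:20218649-20218672 (minus strand), was at 27.2 and 28.8 RPM in WT and at 5.38 and 6.27 RPM in sa37 (difference -2.09, SE 0.14, limma adjusted p 0.00201). P and R missed the threshold without the block (adjusted p 0.0812 and 0.0995), and R also with a pseudocount of 0.1 RPM (adjusted p 0.141).

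**Figure D2:**
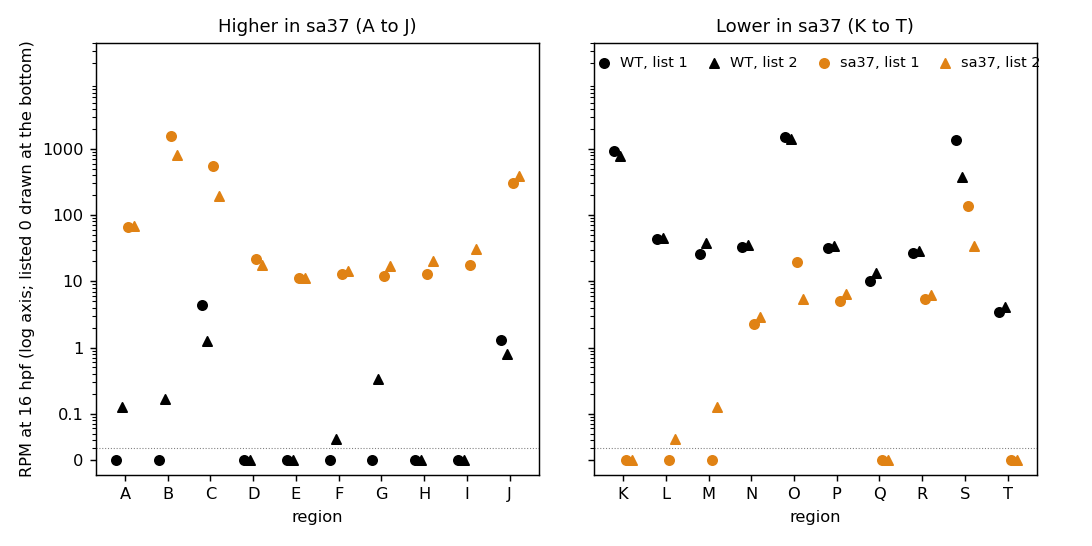
RPM at 16 hpf of the 20 named regions on a log axis, with listed zeros drawn at the bottom, A to J (higher in sa37) on the left and K to T (lower) on the right; WT in black, sa37 in orange, circles for list 1 and triangles for list 2, 1 point per library. WT and sa37 do not overlap in any of the 20 regions, which their choice by smallest adjusted p favours. The smallest gaps are at S, where WT of list 2 (375 RPM) is above sa37 of list 1 (137 RPM), and at R and P.

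The values of the 2 genotypes did not overlap in 375 of the 412 called regions, as against 16.7% of all tested regions. The 412 were called on these same values, which favours such a gap, so this count is no separate support. A stricter description counted regions whose levels stayed below 0.5 RPM throughout one genotype and reached 5 RPM or more throughout the other. In sa37 alone, 23 regions were on (0.121% of those tested), of which 21 were called and 11 were listed at 0 in both WT libraries. Their sa37 values ran from 5.09 to 1553 RPM, with a median of means of 13.8 RPM, and 16 of the 23 had a mean under 20 RPM. In WT alone, 13 regions were on (0.0686%), of which 12 were called and 7 were listed at 0 in both sa37 libraries. Their WT values ran from 5.08 to 918 RPM, with a median of means of 13.1 RPM. Such on and off start sites were spread over 18 chromosomes or scaffolds for sa37 and 12 for WT.

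The same bounds held at 12 hpf for 9 of the 23 sa37 regions and 4 of the 13 WT regions. At 12 hpf WT was under 0.5 RPM in both libraries for 15 of the 23, and sa37 was so for 11 of the 13. In each set, 1 region was under 0.5 RPM in all 4 libraries of 12 hpf. The genotype that was under 0.5 RPM at 16 hpf was therefore under it in both of its 12 hpf libraries too in 26 of the 36.

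Regions called by limma were narrower and less used than the tested ones as a whole. The part on level depended on the test, as the shares by level below show. Their median width was 56 bases against 92 over all tested regions, and 21.4% were under 20 bases wide against 7.24%. Their median level over the 4 libraries was 3.92 RPM against 8.64, and 247 of the 412 were under 5 RPM, against 36.1% of all tested regions. Higher and lower regions were alike in this, with median widths of 58 and 52.5 bases and median levels of 3.69 and 4.24 RPM. The plus strand held 53.4% of the called and 49.7% of the tested regions.

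By level, the share called was 3.31% at 1 to 2 RPM and 3.81% at 2 to 5 RPM. It was lower at each further step, with 0.398% at 50 to 100 RPM, and then 2.19% at 100 RPM or more, where 13 regions were higher and 13 lower. EdgeR on tags called 0.317% at 1 to 2 RPM and 2.28% at 100 RPM or more, so the tests differed most among the least used regions. By width, the share called was 5.85% under 10 bases, 7.3% at 10 to 20 bases and 1.17% at 200 bases or more. EdgeR gave 2.51, 3.18 and 0.464% in the same classes. Wider regions were called less often than narrow ones by both tests, as a description without a test of its own.

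**Figure D3:**
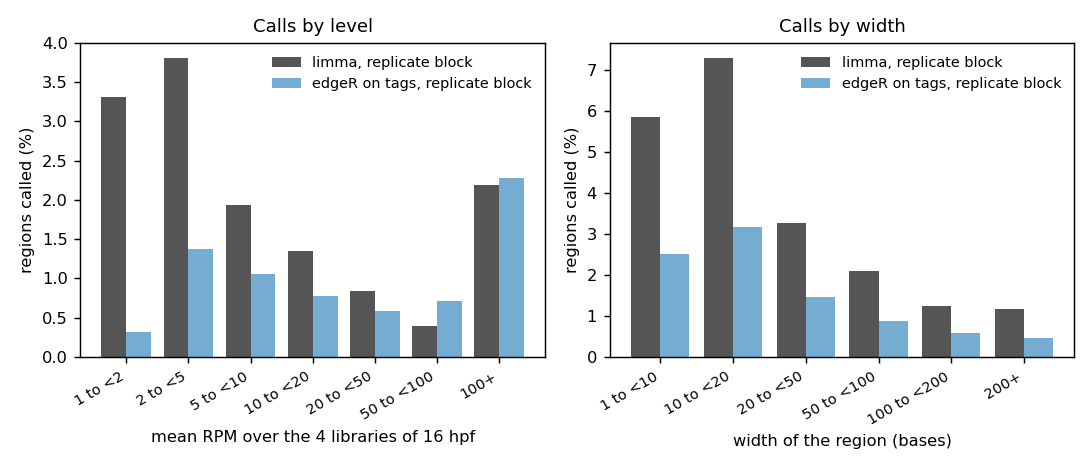
Share of tested regions called at 16 hpf (%), by mean RPM on the left and by region width in bases on the right, with dark bars for limma and light bars for edgeR, both with the replicate block. Limma called 3.31% of the regions at 1 to 2 RPM and edgeR 0.317%, while at 100 RPM or more they called 2.19 and 2.28%, and both called a smaller share of regions of 200 bases or more than of those under 20 bases.

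The 412 called regions were spread over all 25 chromosomes and over unplaced scaffolds. The share called ran from 0.741% on chromosome 19 to 3.85% on chromosome 4, where 32 of 831 tested regions were called, 23 of them higher and 9 lower in sa37. On unplaced scaffolds, 11 of 265 were called (4.15%). In windows of 1 Mb, 298 of 1334 held a call, and 235 of these held 1. Only 3 windows held 5 or more. They were picked after their values were seen, and they hold 29 of the 412 calls and 198 tested regions. Outside them, 2.04% of regions were called, with 254 higher and 129 lower.

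The windows with the most calls were at 73 to 74 Mb of chromosome 7 (12 of 39 tested, 6 higher and 6 lower), 34 to 35 Mb of chromosome 25 (10 of 92, 3 higher and 7 lower) and 6 to 7 Mb of chromosome 7 (7 of 67, 1 higher and 6 lower). They contain the named regions B, K, O and S. These are heavily used stretches: together they took 14.2 and 10.6% of the listed RPM in WT and 11.7 and 8.37% in sa37, in lists 1 and 2. In the window of chromosome 25 the summed level was 73428 and 57641 RPM in WT and 60792 and 45384 RPM in sa37. In the window at 73 to 74 Mb of chromosome 7 it was 20417 and 16220.4 RPM in WT and 17399 and 12656 RPM in sa37, and at 6 to 7 Mb it was 34892 and 28391 RPM in WT and 28616 and 22967 RPM in sa37. In each window and each list the sum was lower in sa37 than in WT, and the same held at 12 hpf. How tags that match several near-identical places were assigned is not given in the sources used here. Levels in any region with such matches are uncertain, and whether these windows hold them was not tested.

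Within these windows, neighbouring start sites moved in opposite directions. On chromosome 25, a called region near B lies at 34602855 to 34602885 on the same strand. It was at 3373 and 1233 RPM in WT and at 11.8 and 0.415 RPM in sa37 (difference -8.90, SE 0.64, limma adjusted p 0.00238). A further one at 34638425 to 34638435 was at 2952 and 985 RPM in WT and at 14 and 0 RPM in sa37 (difference -8.78, SE 0.78, limma adjusted p 0.00482). On the plus strand, a region at 34650658 to 34650873 was at 19.9 and 27.9 RPM in WT and at 1520.2 and 771 RPM in sa37 (difference 5.46, SE 0.33, limma adjusted p 0.00152). Start sites far stronger in WT and start sites far stronger in sa37 thus lay within 50 kb of each other. Without the block, the call at 34650658 was kept (adjusted p 0.0141) and those at 34602855 and 34638425 were lost (adjusted p 0.121 and 0.241), the last also in edgeR (adjusted p 0.0772).

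On chromosome 7, 3 regions around K and O that were in use in both genotypes rose in sa37. The region at 73592107 to 73592177 on the minus strand was at 864 and 501 RPM in WT and at 2339 and 1728 RPM in sa37 (difference 1.61, SE 0.23, limma adjusted p 0.0252). The region at 73600315 to 73600338 on the plus strand was at 404 and 299 RPM in WT and at 1067 and 807 RPM in sa37 (difference 1.41, SE 0.14, limma adjusted p 0.00737). The region at 73632934 to 73632969 on the minus strand was at 550.0 and 393 RPM in WT and at 1426 and 1118 RPM in sa37 (difference 1.44, SE 0.16, limma adjusted p 0.0114). Among them, 2 regions in use in both genotypes fell. The minus-strand region at 73590819 to 73590837 was at 1897 and 1444 RPM in WT and at 525 and 505 RPM in sa37 (difference -1.68, SE 0.19, limma adjusted p 0.0107). The minus-strand region at 73622596 to 73622615 was at 1777 and 1878 RPM in WT and at 536 and 426 RPM in sa37 (difference -1.93, SE 0.20, limma adjusted p 0.00782). Regions of this stretch that both genotypes used thus went either way. Next to them, a region at 73628145 to 73628166 on the minus strand was at 1640.1 and 1386 RPM in WT and at 102 and 21.6 RPM in sa37 (difference -4.97, SE 0.50, limma adjusted p 0.00763). At 6 to 7 Mb, the 6 lower regions included one at 6222153 to 6222168 on the minus strand at 1621 and 544 RPM in WT and at 549 and 154 RPM in sa37 (difference -1.69, SE 0.18, limma adjusted p 0.00882). Without the block these 7 regions of chromosome 7 missed the threshold (adjusted p 0.157 to 1), and in edgeR with the block each was called. They were chosen after their values were seen. Among the calls of these windows not described here, the higher ones at 73408671, 73594789 and 73600419 missed the threshold in edgeR (adjusted p 0.102, 0.148 and 0.327). The lower one at 6215111 missed it too (edgeR adjusted p 0.478), and the rest of the calls in both chromosome 7 windows were kept in edgeR.

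Over the whole genome, 48 of the 412 called regions had another called region within 10 kb, and 24 of these lay outside the 3 dense windows. Among all tested regions 2.17% were called. The same count around uncalled regions was not made, so whether calls lie closer together than other regions was not tested. For 237 called regions no other tested region lay within 10 kb. Neighbours were counted from each called region, so a pair of called regions was counted once from each member. Neighbours under 1 kb away on the same strand numbered 63, of which 14 were called in the same direction and none in the opposite one. On the opposite strand under 1 kb there were 18, with 2 called in the same direction and none in the opposite one. At 1 to 10 kb the directions were mixed, with 36 of 388 same-strand neighbours called in the same direction and 26 in the opposite one, and 12 and 22 of 154 on the opposite strand. Most of the mixed pairs lay in the dense windows: outside them, the same-strand neighbours at 1 to 10 kb were called in the same direction in 6 and in the opposite one in 4 of 134, and those on the opposite strand in 2 and 6 of 84.

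Outside the dense windows, 5 pairs of start sites within 10 kb were called in opposite directions, and 3 are given here, chosen after their values were seen. On chromosome 8, a region at 24376864 to 24377208 on the plus strand was at 48.4 and 55.2 RPM in WT and at 0.64 and 0 RPM in sa37 (difference -5.36, SE 0.60, limma adjusted p 0.0105). The minus-strand region at 24379736 to 24379776 was at 5.57 and 11.9 RPM in WT and at 80.2 and 40.8 RPM in sa37 (difference 2.66, SE 0.46, limma adjusted p 0.0442). At 16 hpf the first region was above the second in WT and below it in sa37, in both lists. In WT at 12 hpf the first was at 12.8 and 59.5 RPM and the second at 13.6 and 7.84 RPM. The regions lie on opposite strands, and whether they belong to 1 gene was not tested. Without the block both missed the threshold (limma adjusted p 0.0806 and 0.354).

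Also on chromosome 8, a minus-strand region at 23172697 to 23172961 was at 19.0 and 22.4 RPM in WT and at 0 and 1.54 RPM in sa37 (difference -3.77, SE 0.37, limma adjusted p 0.00733). The plus-strand region at 23174065 to 23174069 was at 1.22 and 4.79 RPM in WT and at 4.68 and 32.3 RPM in sa37 (difference 1.94, SE 0.30, limma adjusted p 0.0317). In that second region the WT library of list 2 was above the sa37 library of list 1, so the genotypes overlapped across lists and were apart within each. On chromosome 20, both starts are on the plus strand: the region at 23333585 to 23333590 was at 2.26 and 1.3 RPM in WT and at 8.38 and 4.94 RPM in sa37 (difference 1.45, SE 0.17, limma adjusted p 0.0123). The region at 23339695 to 23339758 was at 4.1 and 9.63 RPM in WT and at 0.98 and 2.62 RPM in sa37 (difference -1.46, SE 0.15, limma adjusted p 0.00737). Without the block, each region of this pair and of the pair at 23172697 missed the threshold (limma adjusted p 0.0923 or more). In edgeR with the block, the region at 23333585 was called (adjusted p 0.0305), and the adjusted p of the other five ran from 0.0511 to 0.419.

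The 12 hpf libraries gave the same genotype comparison in other libraries, 4 hours earlier. The labels do not say whether the embryos of both stages came from the same clutches. Of the 412 regions called at 16 hpf, 401 had the same sign at 12 hpf, as against 67.6% of all tested regions. At 12 hpf, 491 of the 18959 regions were called (2.59%), 274 higher (1.45%) and 217 lower (1.14%), and 256 were called at both stages, each in the same direction. These 256, 156 higher and 100 lower, are 62.1% of the calls at 16 hpf and 52.1% of those at 12 hpf. Whichever of the 8 libraries was left out, 67 to 134 regions were called at both stages. The stages share one estimate of the spread and the same lists, so the overlap is a description.

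The genotype difference at 12 hpf was 0.863 of that at 16 hpf in the median called region, with quartiles of 0.636 and 1.034. These regions were chosen by their 16 hpf difference, which by itself favours a ratio under 1, so no growth between the stages is read from it. In 72 regions it was under 0.5 of the 16 hpf difference, and in 115 it was at least as large. Most of the named regions had a difference of like size at both stages. Region A was at 0 and 0.043 RPM in WT and at 75.4 and 73.8 RPM in sa37 at 12 hpf, and K at 1171 and 859 RPM in WT and at 0 in both sa37 libraries. Of the 20 named regions, 18 were called at 12 hpf in the same direction, and I and R were not.

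**Figure D4:**
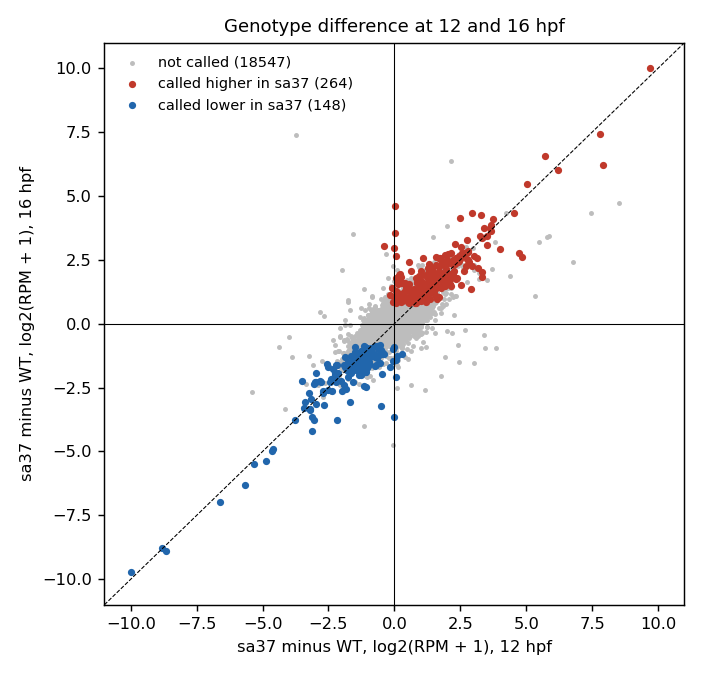
Genotype difference (sa37 minus WT, log2(RPM + 1)) at 12 hpf on the horizontal axis and at 16 hpf on the vertical axis for the 18959 tested regions, with the 264 called higher and 148 called lower at 16 hpf in red and blue. Of the called regions, 401 have the same sign at both stages, and a few lie on the vertical zero line, with a difference at 16 hpf and almost none at 12 hpf.

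A test of whether the genotype difference itself changed from 12 to 16 hpf called 0 of the 18959 regions (limma interaction, smallest adjusted p 0.0706). At an unadjusted p under 0.05 it held 861 regions (4.54%), and 100 of the 412 called (24.3%), a set that was chosen by its 16 hpf difference. DESeq2 called 29. Limma called 2 when the filter was raised to a mean of 5 RPM, 1 with an intensity trend, and 0 to 2 with 1 library left out.

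The 8 called regions with the smallest interaction p are given as values, chosen after they were seen. Region I was at 0 in both WT libraries and at 0 and 0.057 RPM in sa37 at 12 hpf, and went to 17.6 and 31.2 RPM in sa37 at 16 hpf with WT still at 0 (interaction 4.57, SE 0.32, limma adjusted p 0.0706). Region R was at 0 and 0.086 RPM in WT and at 0 and 0.172 RPM in sa37 at 12 hpf, before the levels of 27.2 and 28.8 in WT and 5.38 and 6.27 in sa37 (interaction -2.14, SE 0.20, limma adjusted p 0.184). Both were start sites at or near 0 in all libraries of 12 hpf and in use at 16 hpf, I in sa37 and R in both genotypes.

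A region at chr4:56092417-56092433 (minus strand) followed I, at 0 and 0.126 RPM in WT and 4.51 and 7.27 RPM in sa37 at 16 hpf, and at most 0.115 RPM in any library at 12 hpf. A region at chr5:835176-835185 (minus strand) was at 6.85 and 10.8 RPM in WT and at 0 and 0.083 RPM in sa37 at 16 hpf, and at 0 and 1.03 RPM in WT and 0 in both sa37 libraries at 12 hpf. The start site on chromosome 20 at 23339695, of the pair above, was at 0 and 1.2 RPM in WT and at 0 and 1.03 RPM in sa37 at 12 hpf. A region at chr11:25181223-25181272 (minus strand) was at 4.53 and 7.78 RPM in WT and at 1.04 and 2.37 RPM in sa37 at 16 hpf, and at 0 and 0.9 RPM in WT and 0 and 1.09 RPM in sa37 at 12 hpf. At 16 hpf the levels on chromosome 20 and at this region of chromosome 11 were above those at 12 hpf in both genotypes and both lists, and by more in WT.

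The remaining 2 were higher in sa37. A plus-strand region on chromosome 23, at 39665531 to 39665606, was at 0.61 and 2.23 RPM in WT and at 4.05 and 13.9 RPM in sa37 at 16 hpf, and at 1.33 and 4.67 RPM in WT and 1.62 and 5.9 RPM in sa37 at 12 hpf. A minus-strand region on chromosome 11, at 12633976 to 12634033, was at 0 and 0.084 RPM in WT and at 4.22 and 5.02 RPM in sa37 at 16 hpf, and at 0 and 0.043 RPM in WT and 0.77 and 0.286 RPM in sa37 at 12 hpf. Of the 8, 4 were thus higher and 4 lower in sa37 at 16 hpf. The limma adjusted interaction p was 0.191 for the region on chromosome 4 and 0.704 for each of the other five after it. At 16 hpf without the block, the limma adjusted p was 0.0804 on chromosome 4, 0.0861 on chromosome 5 and 0.0813 at 12633976. The regions on chromosomes 20 and 23 and at 25181223 also missed the threshold without it. In edgeR with the block, the region on chromosome 23 was called at 16 hpf (adjusted p 0.0105). For the other regions listed after R the edgeR adjusted p ran from 0.0763 to 0.471.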

How the data were processed

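RNA was measured by CAGE. The labels' protocols describe column-purified total RNA, reverse transcription, capture of biotinylated caps on streptavidin and linker ligation. The authors deposited RPM values per start site cluster, the unit being inferred from column sums and steps. The submitters' processing notes name danRer10, BWA and HISAT2. Their roles, the clustering method and the handling of tags with several matches are not given in the sources used here.

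Repeated entries (412 in list 1, 796 in list 2) were counted once. End coordinates were read as exclusive. Clusters of both lists overlapping on the same strand were merged, and each library's RPM added. Each printed region spans its merged clusters.

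The main test was limma 3.58.1 (R 4.3.3) on log2(RPM + 1) over 8 libraries, with a mean per group and the replicate number, which is also the cluster list, as a block (3 residual degrees of freedom). P-values were two-sided and adjusted by Benjamini-Hochberg over the 18959 regions. The replicate difference correlated between groups with r of 0.682 to 0.831 across regions, and the pairing comes from the titles and tables. In each direction, the 10 called regions of lowest adjusted p with 1 sign in both lists were named.

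Whole tags were recovered from RPM steps: 100.0% of low values were whole within rounding, against 8.7 to 24.2% for evenly spread values. EdgeR 4.0.16 called 178 regions on them and DESeq2 1.42.0 called 726. Tags in distinct clusters numbered 10662416 to 23300962 per library. The 3-tag floor was 0.125 to 0.256 RPM and covers counting error only. The tests were tried on simulated data in which the difference between the lists was common to all groups, as the block assumes. That trial cannot say how well the block suits these libraries.

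The members and lists were chosen with earlier results of these data known. Gene lists and marker lists needed an annotation of danRer10 and were not used.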

Additional observations from a re-analysis of the deposited data

Results flagged for a closer look

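Start sites that only 1 of the cluster lists covers entered no comparison, and some of them were on in one genotype at 16 hpf, with 1 library per genotype and no test. List 1 alone covers 6397 regions. Of these, 22 were at 5 RPM or more in sa37 and under 0.5 RPM in WT, and 27 were the other way round. At both stages 4 and 7 of them met these bounds. List 2 alone covers 12131 regions, of which 1 was on in sa37 and 7 were on in WT. At both stages 1 and 4 of them met the bounds.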

How the results depend on the processing

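The count of 412 regions at 16 hpf was within 1.5 times that number without a filter, with quantile normalization, with an intensity trend, with values under 0.5 RPM set to 0 and with clusters merged over 100 bases. It was 17 without the replicate block, 72 with the 16 hpf libraries alone and the block, and 5 (449 at an unadjusted p under 0.05) with those alone and no block. It was 136 with a pseudocount of 0.1, 200 at a mean of at least 5 RPM, 178 with edgeR and TMM, 172 with edgeR and the size factors of DESeq2, and 726 with DESeq2. With 1 library left out it was 92 to 332. The 256 regions called at both stages became 14 without the block, 106 with the pseudocount of 0.1, 131 at 5 RPM, 130 and 131 with edgeR, 459 with DESeq2, and 67 to 134 with 1 library left out. The interaction count of 0 became 2 at 5 RPM, 1 with the trend, 29 with DESeq2 and 0 to 2 with 1 library left out. The 461 regions past 2-fold in both lists became 722 with the pseudocount of 0.1 and 189 at 5 RPM, and the 36 regions on in one genotype became 23 at 5 RPM. The share of called regions with another one within 10 kb, 11.7%, became 8.33% with the 16 hpf libraries alone and the block, 16% at 5 RPM, 15.3% with DESeq2 and 9.41 to 15.6% with 1 library left out. At 5 RPM fewer regions were tested, and the cause of the other moves was not tested. The direction of the 20 named regions was the same in each setting that tested them (T was under a mean of 5 RPM). Their call was lost for C, G, P, R, S and T without the block, for 16 of 20 with the 16 hpf libraries alone and no block, for G, J and R with the pseudocount of 0.1 and for I with DESeq2. List 1 shows nothing under 0.51 RPM, so a change below that level cannot be seen there.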
